A study of Mus musculus with 24 samples.

Results

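The genes described here are 35 markers of cells that a muscle culture is not meant to hold. Of them, 20 mark macrophages and related leukocytes and 15 mark endothelial cells, out of 56748 genes in the count table. They were chosen by name, as genes known to mark these 2 cell classes, and every symbol was found once in the table. Messenger RNA was sequenced from 24 libraries of primary cells from the hindlimbs of mice under 5 days old. The mice were C57BL/10 (C57) or C57BL/10-Dmdmdx (mdx). The mdx mice have a mutated dystrophin gene, and their myotubes and fibroblasts both carry it. Myotubes, fused muscle cells with many nuclei, received 1 µM aldosterone or 0.001% DMSO as vehicle for 48 h, and then fresh medium that was collected over 15 h. Fibroblasts were kept for 24 h in the collected medium of vehicle- or aldosterone-treated myotubes of their own genotype. The 8 groups of cell type, genotype and treatment had 3 libraries apiece. The labels number them as biological replicates 1 to 3, called cultures here; nothing else says that they were separate cultures, so p-values measure the spread between these libraries.

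Macrophages are phagocytes of the myeloid lineage that live in muscle between the fibres, clear debris and shape repair after injury. They are recognised by the complement component C1q, the receptor of the growth factor Csf1, immune receptors with their signalling adaptors, and lysosomal enzymes. Endothelial cells line the capillaries around each fibre and are recognised by junction proteins, receptors for vascular growth factors and surface sialomucins. Neither class forms myotubes or is a fibroblast, so RNA of their genes in such cultures is commonly read as a sign of other cells, although single members are also made by muscle cells or fibroblasts. In bulk libraries, fewer cells of a type and less RNA per cell cannot be told apart.

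Library totals were 14133165 to 31144746 counts for myotubes and 16964960 to 42698139 for fibroblasts. Levels are in CPM, counts scaled to the library total, and 3 counts, the limit that a count of 0 allows, correspond to 0.0703 to 0.212 CPM. Dmd, the mutated gene, stood at 333 to 432 CPM in C57 myotubes and at 34.5 to 63.3 CPM in mdx myotubes, with no overlap. In fibroblasts it stood at 25.2 to 39.6 CPM in C57 and at 7.80 to 13.6 CPM in mdx. The 10 muscle genes summed to 20639 to 33875 CPM in myotube libraries and to 14.1 to 139 CPM in fibroblast libraries. The 10 fibroblast genes summed to 17066 to 29747 CPM in fibroblasts and to 295 to 4458 CPM in myotubes, with the highest myotube values in mdx culture 2 (4138 CPM with vehicle and 4458 CPM with aldosterone).

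Promoter sequences are shown for 4 members, because members of the macrophage list moved together from library to library and the regulator Spi1 (PU.1), a transcription factor of myeloid cells, is known to bind the core GAGGAA. RefSeq promoters (build GRCm38.p6, 250 bases before the start site) were found for 26 of the 35 members. The first 3 sequences belong to macrophage members with a match and the last to Emcn, the endothelial member with the clearest difference between cell types. Capitals mark GAGGAA or CAGGAAGT on either strand, read here along the gene's own strand, 5′ to 3′, and each name is followed by its place as chr4:136886201-136886450 (minus strand), chr4:136892915-136893164 (minus), chr17:57278850-57279099 (plus) and chr3:137340828-137341077 (plus).
C1qb: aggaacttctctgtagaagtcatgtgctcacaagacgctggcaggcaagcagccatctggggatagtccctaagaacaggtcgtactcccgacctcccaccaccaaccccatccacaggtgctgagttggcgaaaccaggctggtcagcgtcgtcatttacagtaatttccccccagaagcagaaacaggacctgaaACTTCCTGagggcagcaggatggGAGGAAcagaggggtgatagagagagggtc
C1qc: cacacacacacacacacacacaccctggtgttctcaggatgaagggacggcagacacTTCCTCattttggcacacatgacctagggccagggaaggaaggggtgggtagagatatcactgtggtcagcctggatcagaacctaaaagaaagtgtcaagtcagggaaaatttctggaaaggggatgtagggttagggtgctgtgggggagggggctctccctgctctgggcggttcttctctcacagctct
Vav1: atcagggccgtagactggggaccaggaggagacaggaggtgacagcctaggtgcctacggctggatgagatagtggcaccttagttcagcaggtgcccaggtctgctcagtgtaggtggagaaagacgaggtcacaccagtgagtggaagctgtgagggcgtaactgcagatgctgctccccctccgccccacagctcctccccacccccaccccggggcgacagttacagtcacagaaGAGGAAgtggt
Emcn: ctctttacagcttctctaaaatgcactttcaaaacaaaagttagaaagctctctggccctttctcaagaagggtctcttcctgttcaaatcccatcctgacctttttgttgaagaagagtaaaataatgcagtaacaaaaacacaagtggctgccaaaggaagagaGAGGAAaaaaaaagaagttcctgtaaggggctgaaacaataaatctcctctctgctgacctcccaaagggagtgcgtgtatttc

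GAGGAA, searched on both strands, was found in 10 of the 16 macrophage members with a promoter entry, and in 5 of the 10 endothelial members. In the whole table, 25.9% of genes and 23.3% of the 32851 promoters hold it. The macrophage members with a match were C1qb, C1qc, Cd68, Ptprc, Laptm5, Vav1, Mrc1, Ctss, Aif1 and Trem2, and the endothelial ones were Flt1, Tie1, Emcn, Eng and Robo4. The longer word GAGGAAGT, which contains GAGGAA, was found in C1qc, Vav1 and Eng and in 2.44% of all promoters. CAGGAAGT, which shares AGGAA with GAGGAA but does not contain it, was found in C1qb, Lyz2, Ptprc, Hcls1, Mrc1 and Egfl7 and in 2.69% of all promoters. A match is a word in this window and was not tested for binding.

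Macrophage genes were the most variable of the 35 among myotube cultures. Their summed level, given in the order of cultures 1, 2 and 3, was 19.8, 650.4 and 382 CPM in C57 myotubes with vehicle and 17.6, 479 and 293 CPM with aldosterone. The mdx myotubes had 6.46, 55.4 and 22.1 CPM with vehicle and 7.45, 280.2 and 17.3 CPM with aldosterone. C57 cultures 2 and 3 were high under both treatments, mdx culture 2 was intermediate with vehicle and high with aldosterone, and the remaining libraries were low. The highest myotube library exceeded the lowest 100.6-fold, and 104-fold after scaling by TMM (a correction of library totals for composition). In the 12 fibroblast libraries the sum ran from 13.9 to 36.9 CPM. Of the 12 myotube libraries, 6 lay above every fibroblast library and the lowest ones lay below every fibroblast library. The spread within groups was about as large as the means: C57 myotubes with vehicle averaged 351 ± 317 CPM and mdx myotubes with vehicle 28.0 ± 25.0 CPM (SD, n = 3 each).

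The endothelial sum varied less. It was 104, 243 and 189 CPM in C57 myotubes with vehicle, 139, 272 and 207 CPM with aldosterone, 82.5, 94.7 and 81.9 CPM in mdx myotubes with vehicle and 75.0, 122 and 111 CPM with aldosterone. Fibroblast libraries ran from 75.3 to 102.8 CPM. All 6 C57 myotube libraries and mdx aldosterone cultures 2 and 3 lay above every fibroblast library, 8 of 12 in all, and the myotube range was 3.62-fold. Most of the fibroblast sum was Eng, which both cell types expressed. Without Eng, all 12 myotube libraries lay above every fibroblast library and the range was 5.82-fold.

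**Figure D1:**
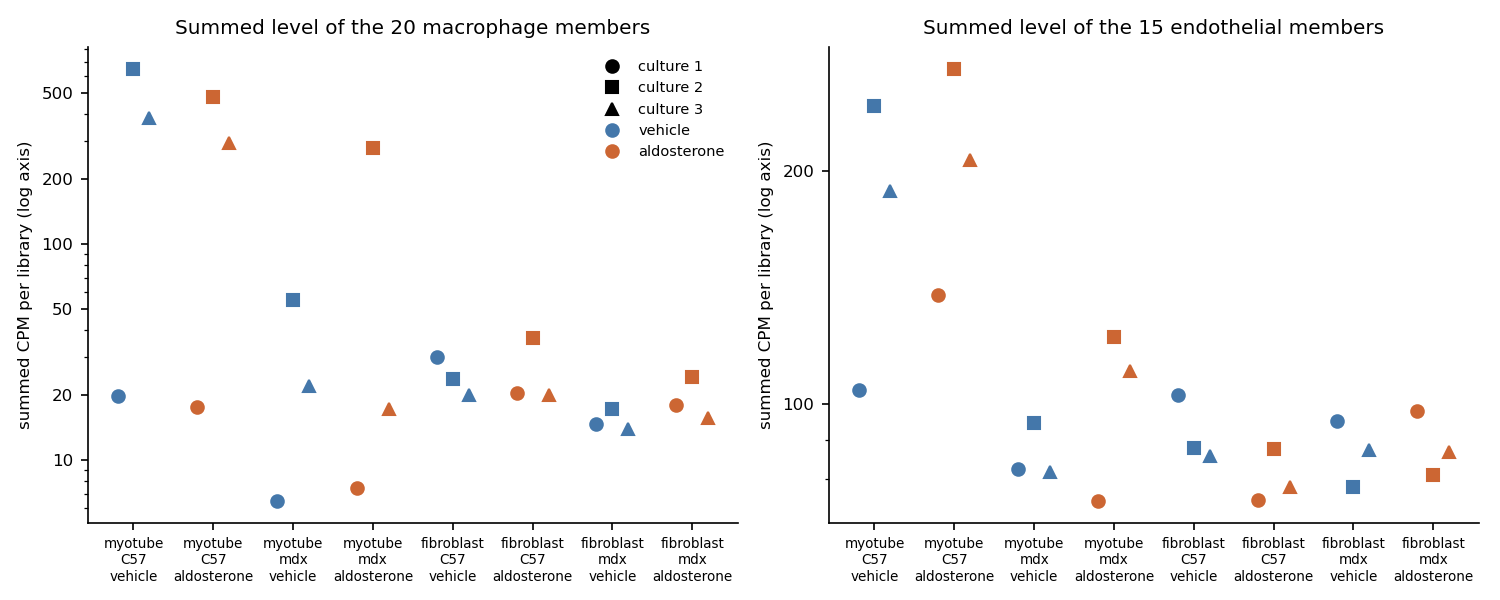
Summed CPM of the 20 macrophage members and of the 15 endothelial members (log axis) in each of the 24 libraries, by group on the horizontal axis, with 1 point per library. Macrophage sums of myotubes spread from 6.46 to 650.4 CPM while fibroblasts lie between 13.9 and 36.9 CPM, and endothelial sums of C57 myotubes lie above those of most other libraries.

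The complement component C1q is made of 3 chains whose genes lie next to each other on mouse chromosome 4 (mm39, minus strand: C1qb at 136607440 to 136613498, C1qc at 136617115 to 136620376, C1qa at 136623228 to 136626114). C1qa stood at 0.340, 26.5 and 13.2 CPM in C57 myotubes with vehicle, then 0.482, 20.6 and 13.5 CPM with aldosterone, then 0, 1.20 and 0.704 CPM in mdx with vehicle and, under aldosterone, 0, 12.5 and 0.940 CPM. C1qb stood at 1.11, 29.9 and 15.2, then 0.627, 26.8 and 13.8, then 0, 2.12 and 0.915, then 0, 12.5 and 0.940 CPM in the same order. The 3 genes followed each other: in the 5 libraries with at least 100 C1q counts, C1qa took 28.8 to 34.0%, C1qb 33.3 to 37.5% and C1qc 31.9 to 37.7% of them. In fibroblasts each stayed at or below 0.415 CPM. C1q was at 0 in both libraries of mdx culture 1, which allows up to 3 counts of each gene.

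Receptors and their adaptors came next. Tyrobp, the adaptor that carries the signal of Trem2 and related receptors, stood at 0.553, 15.8 and 10.3 CPM in C57 myotubes with vehicle and 0.434, 10.6 and 6.12 CPM with aldosterone. The mdx values were 0, 0.849 and 0.0704 CPM with vehicle and 0, 5.75 and 0.332 CPM with aldosterone. Fibroblasts stayed at or below 0.311 CPM. Fcer1g, the shared chain of Fc receptors, ran from 0 to 9.09 CPM over the myotube libraries, and Cx3cr1, the receptor of fractalkine, from 0 to 8.57 CPM, each highest in C57 vehicle culture 2. Cx3cr1 did not exceed 0.107 CPM in any fibroblast library.

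Csf1r and Trem2 were detected in every fibroblast library as well. Csf1r, the receptor that macrophages need to survive, stood at 1.11, 27.4 and 17.3 CPM in C57 myotubes with vehicle, 0.964, 17.6 and 15.1 CPM with aldosterone, 0.0994, 1.91 and 0.774 CPM in mdx with vehicle and 0.127, 7.85 and 0.829 CPM with aldosterone. In fibroblasts it kept to 1.91 to 3.87 CPM. Myotube cultures thus lay on both sides of the narrow fibroblast range. Trem2, a lipid-sensing receptor, ran from 0.0637 to 24.2 CPM in myotubes and from 1.35 to 4.93 CPM in fibroblasts.

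Surface markers and signalling genes repeated the culture pattern. Adgre1, which encodes the F4/80 antigen, stood at 0.595, 18.5 and 13.1 CPM in C57 myotubes with vehicle and at 0, 2.12 and 0.845 CPM in mdx. Ptprc, the CD45 phosphatase common to all leukocytes, stood at 0.17, 8.28 and 6.24 CPM and at 0, 0.920 and 0 CPM in the same groups. Vav1, an exchange factor of blood cells, ran from 0 to 4.5 CPM and Laptm5, a lysosomal membrane protein of leukocytes, from 1.05 to 26.5 CPM. Laptm5 remained above 1 CPM even in the cultures where Tyrobp and C1q were at 0. Hcls1, a leukocyte cortactin homologue, ran from 0.352 to 6.68 CPM in myotubes and from 0.317 to 1.03 CPM in fibroblasts.

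The mannose receptor Mrc1 and the haemoglobin scavenger receptor Cd163 are used as markers of resident macrophages, and they parted here. Mrc1 stood at 0.808, 14.7 and 7.48 CPM in C57 with vehicle, 0.675, 14.8 and 9.83 CPM with aldosterone, 0.464, 0.849 and 0.704 CPM in mdx with vehicle and 0.382, 14.7 and 0.276 CPM with aldosterone. In mdx culture 2 with aldosterone it thus reached the level of C57 culture 2. Cd163 stood at 0.510, 0.642 and 0.617, then 0.0964, 0.242 and 0.506, then 0.133, 0.495 and 0.704, then 0.127, 0.247 and 0.663 CPM in the same order. It did not follow the high and low cultures, and it was the 1 macrophage member that was lower with aldosterone in 6 of 6 myotube cultures.

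Lysosomal and effector genes gave most of the counts. Lyz2, which encodes lysozyme, stood at 5.31, 283 and 164 CPM in C57 myotubes with vehicle, 5.88, 200 and 117 CPM with aldosterone, 1.36, 24.1 and 8.80 CPM in mdx with vehicle and 1.15, 121 and 4.48 CPM with aldosterone. Fibroblasts held 1.24 to 16.8 CPM. Lyz2 has a near-identical neighbour, Lyz1, and how reads were split between them is uncertain. Mpeg1, a pore-forming protein of phagocytes, ran from 0.127 to 64.1 CPM in myotubes and from 0 to 1.97 CPM in fibroblasts, and Ctss, a lysosomal protease, from 0 to 23.7 CPM and from 0 to 1.35 CPM. Cd68, a lysosomal glycoprotein, ran from 1.16 to 27.1 CPM in myotubes and from 3.35 to 7.29 CPM in fibroblasts. Aif1, the calcium-binding protein Iba1, did not exceed 1.28 CPM. Per length, Lyz2 had the highest median level of the macrophage members in myotubes (13.3 FPKM, fragments per length and depth), ahead of Cd68 (2.69 FPKM).

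Set side by side, the macrophage members changed together between cultures. C57 vehicle culture 2 exceeded C57 vehicle culture 1 by a median of 27.0-fold over the 19 members with counts in both, more than 10-fold for 17 of them, from 1.26-fold for Cd163 to 78.0-fold for C1qa. For the 14 endothelial members with counts the same median was 1.85-fold. C57 vehicle culture 2 was the highest myotube library for 18 of the 20 macrophage members and 7 of the 15 endothelial members. Over the 12 myotube libraries, 17 of the 20 macrophage members had a Pearson r above 0.9 with the mean of the others on log2(CPM + 0.1), with a median of 0.985 and the lowest values for Cd163 (0.386), Aif1 (0.788) and Hcls1 (0.844). These 12 points share 6 culture numbers, whose libraries resembled each other, so the r is a description. The 13 endothelial members with enough counts had a median of 0.654. In fibroblasts the 13 macrophage members with enough counts had a median of 0.776, with Csf1r at -0.377 and Hcls1 at -0.374, and the 8 endothelial members had 0.0335.

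Among the genes outside the 35 members that followed the macrophage mean most closely over the 12 myotube libraries were Fcgr3 (r = 0.996), Dock2, Apoe, Ms4a7, Cd48, Tlr13, Clec4d, Hk3 and Spi1 (0.987). Fcgr3, Ms4a7 and Spi1 also belong to the list of further myeloid genes and, for the endothelial mean, Bmx to that of further endothelial genes. Apoe, the apolipoprotein of lipid transport, ran from 1.72 to 386 CPM. The myeloid regulator Spi1 stood at 0.425, 6.26 and 3.91 CPM in C57 myotubes with vehicle and at 0.0331, 0.708 and 0.141 CPM in mdx. Among the closest to the endothelial mean were Csf2rb2 (0.974), Arhgap25, Bmx, Alox5ap, Entpd1, Unc93b1, Selp, Adgrf5 and Inpp5d (0.945). In fibroblasts the closest genes to the macrophage mean were Clec4d (0.890), Lilrb4b, Cetn4, Myo1f, Cd84, Mmp12, Tbx15, Cd36, Cracd and Inpp5d (0.845). Those closest to the fibroblast endothelial mean were Zfp825 (0.848), Crb2, Dchs2, Gm12216, 1810062G17Rik, Tprgl, Ttll5, 1700029I15Rik, Rpusd1 and 1700003F12Rik (0.770). Each ranking rests on 12 libraries.

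**Figure D2:**
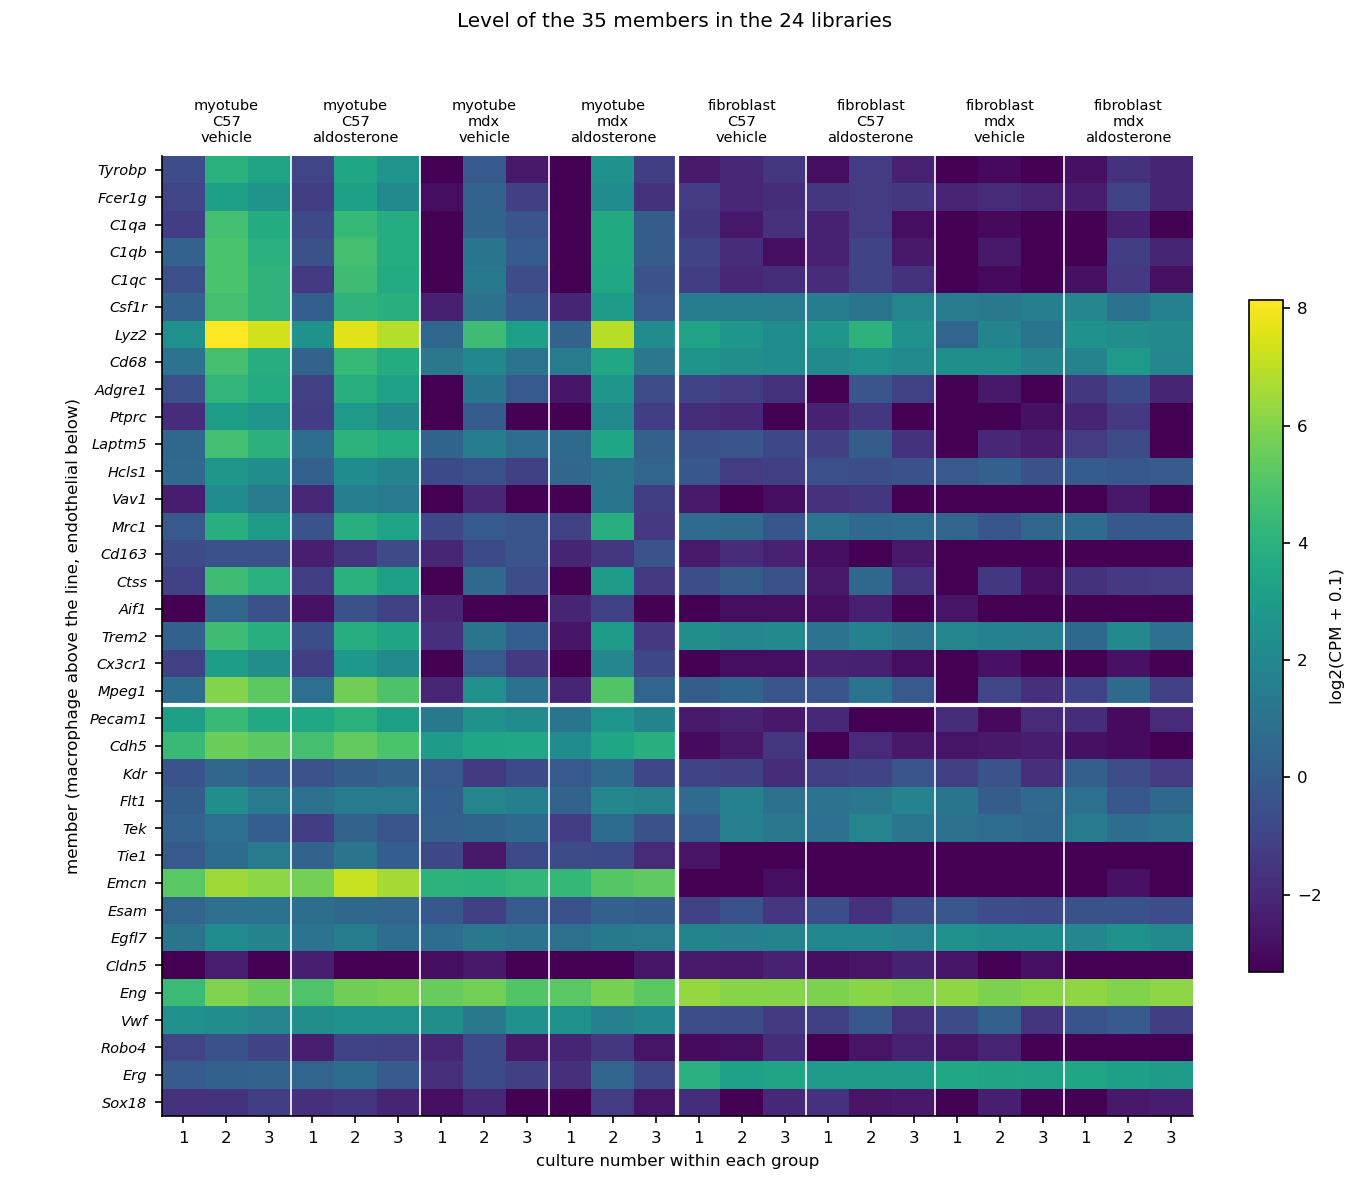
Level of each of the 35 members (rows, macrophage members above the line and endothelial members below) in each of the 24 libraries (columns, by group and culture number), shaded by log2(CPM + 0.1). C57 myotube cultures 2 and 3 and mdx aldosterone culture 2 stand out in the macrophage rows, and Pecam1, Cdh5 and Emcn separate myotubes from fibroblasts.

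Among the endothelial members, 3 junction and surface genes carried the signal of the myotube cultures. Cdh5, the adherens cadherin of endothelium, stood at 22.0, 47.5 and 37.5 CPM in C57 myotubes with vehicle, 27.1, 41.8 and 30.1 CPM with aldosterone, 7.69, 10.5 and 11.4 CPM in mdx with vehicle and 4.71, 10.6 and 15.1 CPM with aldosterone. Pecam1, the adhesion molecule CD31, stood at 9.18, 21.0 and 12.3, then 11.7, 16.1 and 9.15, then 2.42, 5.59 and 4.58, then 2.10, 6.37 and 3.48 CPM. Emcn, an endothelial sialomucin, stood at 37.2, 91.9 and 73.6, then 53.7, 145 and 96.8, then 17.0, 15.8 and 19.2, then 19.9, 34.4 and 40.6 CPM. All 3 had more than 10 counts in every myotube library, C57 culture 1 included, as 3 of the 20 macrophage members did (Lyz2, Cd68 and Laptm5). In fibroblasts Cdh5 did not exceed 0.25 CPM and Pecam1 0.177 CPM, and Emcn was at 0 in 10 of 12 libraries.

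Apart from Eng, the other surface genes did not exceed 5.04 CPM in any library. Esam, a junction adhesion molecule, ran from 0.354 to 1.85 CPM in myotubes and from 0.207 to 0.766 CPM in fibroblasts. Cldn5, the tight-junction claudin of brain endothelium, had 8 counts in all myotube libraries together and 15 in all fibroblast libraries. Among receptors, Kdr and Flt1 bind Vegfa, Tek and Tie1 form the angiopoietin receptor system, Eng is a co-receptor of the TGF-beta family and Robo4 an endothelial guidance receptor. Tie1 ran from 0.0708 to 2.47 CPM in myotubes and was at 0 in 11 of 12 fibroblast libraries, whereas its partner Tek ran from 0.318 to 1.70 CPM in myotubes and from 0.877 to 3.58 CPM in fibroblasts. Kdr ran from 0.283 to 1.48 CPM in myotubes and from 0.179 to 1.00 CPM in fibroblasts, and Flt1 from 0.935 to 5.04 and from 0.761 to 3.31 CPM. Eng ran from 22.2 to 59.9 CPM in myotubes and from 58.4 to 79.6 CPM in fibroblasts, and Robo4 did not exceed 0.642 CPM anywhere.

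The secreted proteins and transcription factors differed most in direction. Vwf, the von Willebrand factor, ran from 2.33 to 5.73 CPM in myotubes and from 0.216 to 1.05 CPM in fibroblasts, and its lowest myotube values lay in mdx culture 2. Egfl7, a secreted factor of vessels, ran from 1.62 to 4.56 CPM in myotubes and from 3.10 to 5.77 CPM in fibroblasts. Erg, an ETS factor of endothelial cells, stood at 0.893, 1.09 and 1.17 CPM in C57 myotubes with vehicle and at 0.199, 0.495 and 0.352 CPM in mdx, against 15.5, 9.23 and 10.2 CPM in C57 fibroblasts and 11.1, 10.1 and 9.52 CPM in mdx fibroblasts with vehicle medium. An endothelial marker was thus higher in the cultures with almost no Cdh5, Pecam1 and Emcn. Sox18, another vascular factor, had 40 counts in all myotube libraries and 29 in all fibroblast libraries. Per length, the highest median levels of endothelial members were those of Eng (11.7 FPKM), Emcn (7.98 FPKM) and Cdh5 (4.90 FPKM) in myotubes and of Eng (15.4 FPKM) and Erg (2.47 FPKM) in fibroblasts.

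Myotubes were compared with fibroblasts under vehicle within each genotype, a comparison in which the culture protocol differs along with the cells. Of the 35 members, 33 passed the filter on low counts (not Cldn5 and Sox18). In C57, 18 of 20 macrophage members and 8 of 13 endothelial members were higher in myotubes and 1 endothelial member was lower (edgeR's quasi-likelihood test, adjusted p below 0.05). Of all genes tested, 36.7% were higher and 38.0% lower. In the fibroblast libraries alone, 10 of the 20 macrophage members and 8 of the 15 endothelial members passed the filter. The other macrophage members, and Pecam1, Cdh5, Tie1, Emcn and Robo4, entered through the myotube libraries, where they were higher. Their direction was thus partly set by the filter. The shares and medians of both lists therefore cannot be weighed against those of all genes. The median log2 difference was 4.82 over the macrophage members, 2.13 over the endothelial members and -0.03 over all genes. From pooled counts, which include the genes at or near 0 in fibroblasts, the 2 medians were 4.90 and 1.61.

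In C57, Hcls1 was higher by 3.30 on the log2 scale (SE 0.50, adjusted p = 5.37e-06) and Tyrobp by 6.04 (SE 1.49, adjusted p = 0.00143). C1qc was higher by 6.29 (SE 1.70, adjusted p = 0.00291) and Csf1r by 2.70 (SE 1.04, adjusted p = 0.0271). The wide errors came with the difference between culture 1 and cultures 2 and 3. For 12 of the 20 macrophage members every C57 vehicle myotube library lay above every C57 vehicle fibroblast library, and none lay entirely below. Of all genes tested, 31.9% lay above and 47.4% below in this way. Among the 12, C1qa, C1qb, C1qc, Tyrobp, Fcer1g, Cx3cr1, Vav1 and Cd163 did not pass the filter in the fibroblast libraries alone. This share therefore cannot be weighed against that of all genes. Cd68 (1.66, SE 0.80, adjusted p = 0.0694) and Trem2 (1.84, SE 1.05, adjusted p = 0.121) did not pass. Leaving out single libraries ended the call of Csf1r and of Mrc1 in 5 of 6 fits each and that of Aif1 in 1.

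The endothelial differences in C57 had smaller errors. Cdh5 was higher by 8.53 (SE 0.57, adjusted p = 1.11e-10), Pecam1 by 7.52 (SE 0.64, adjusted p = 2.34e-09) and Vwf by 3.52 (SE 0.44, adjusted p = 3.18e-07). Esam (2.13, SE 0.36), Kdr (1.78, SE 0.51) and Robo4 (2.87, SE 0.78) also passed. Emcn had 4809 counts in the 3 myotube libraries and 1 in the 3 fibroblast libraries, a CPM ratio of 6606 with a 95% interval of 1185 to 260994 that covers counting error only. The same ratio was 71.4 (19.3 to 598) for Tie1 and 239 (65.7 to 1982) for Cx3cr1, each with 2 fibroblast counts. Erg was lower in myotubes by 3.27 on the log2 scale (SE 0.31, adjusted p = 5.86e-09). Eng, Flt1, Tek and Egfl7 did not pass, with log2 differences from -0.52 to 0.61, although every myotube library lay below every fibroblast library for Eng.

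In mdx, 2 of 20 macrophage members (Laptm5 and Cd163) and 5 of 13 endothelial members (Emcn, Cdh5, Pecam1, Vwf and Tie1) were higher in myotubes, and Erg and Egfl7 were lower. The background was 35.5% higher and 35.1% lower. The filter was the same as for C57, and Emcn, Cdh5, Pecam1, Tie1 and Cd163 did not pass it in the fibroblast libraries alone. The shares in mdx therefore cannot be weighed against those of all genes either. Cdh5 was higher by 7.19 on the log2 scale (SE 0.65, adjusted p = 9.78e-09), Pecam1 by 5.51 (SE 0.68, adjusted p = 5.88e-07) and Vwf by 2.90 (SE 0.43, adjusted p = 4.25e-06). Against fibroblast libraries that were all at 0, Emcn was at least 484-fold, Tie1 at least 10.5-fold and Cd163 at least 10.1-fold higher, with the floor of 3 counts taken over the group. Laptm5 was higher by 4.40 (SE 1.61, adjusted p = 0.0213), a call lost in 4 of 6 fits that left out 1 library. Erg was lower by 4.80 (SE 0.39, adjusted p = 4.97e-10) and Egfl7 by 1.10 (SE 0.26, adjusted p = 0.000653). The macrophage median was 3.14 in the fit and 2.73 from pooled counts with Cd163 at its bound, and the endothelial one was 0.98 in the fit and 0.52 from pooled counts with Emcn and Tie1 at theirs. In mdx, 5 macrophage members pointed the other way without passing, among them Csf1r with a pooled ratio of 0.273 and Trem2 with 0.256, and for these 2 every myotube library lay below every fibroblast library (43.3% of all genes did). Libraries were separated upward for Laptm5, Cd163, Emcn, Cdh5, Pecam1, Vwf and Tie1 (29.4% of all genes). DESeq2 called 16 of the 33 members in mdx, 9 of them macrophage members, against 70.5% of all genes in either direction.

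**Figure D3:**
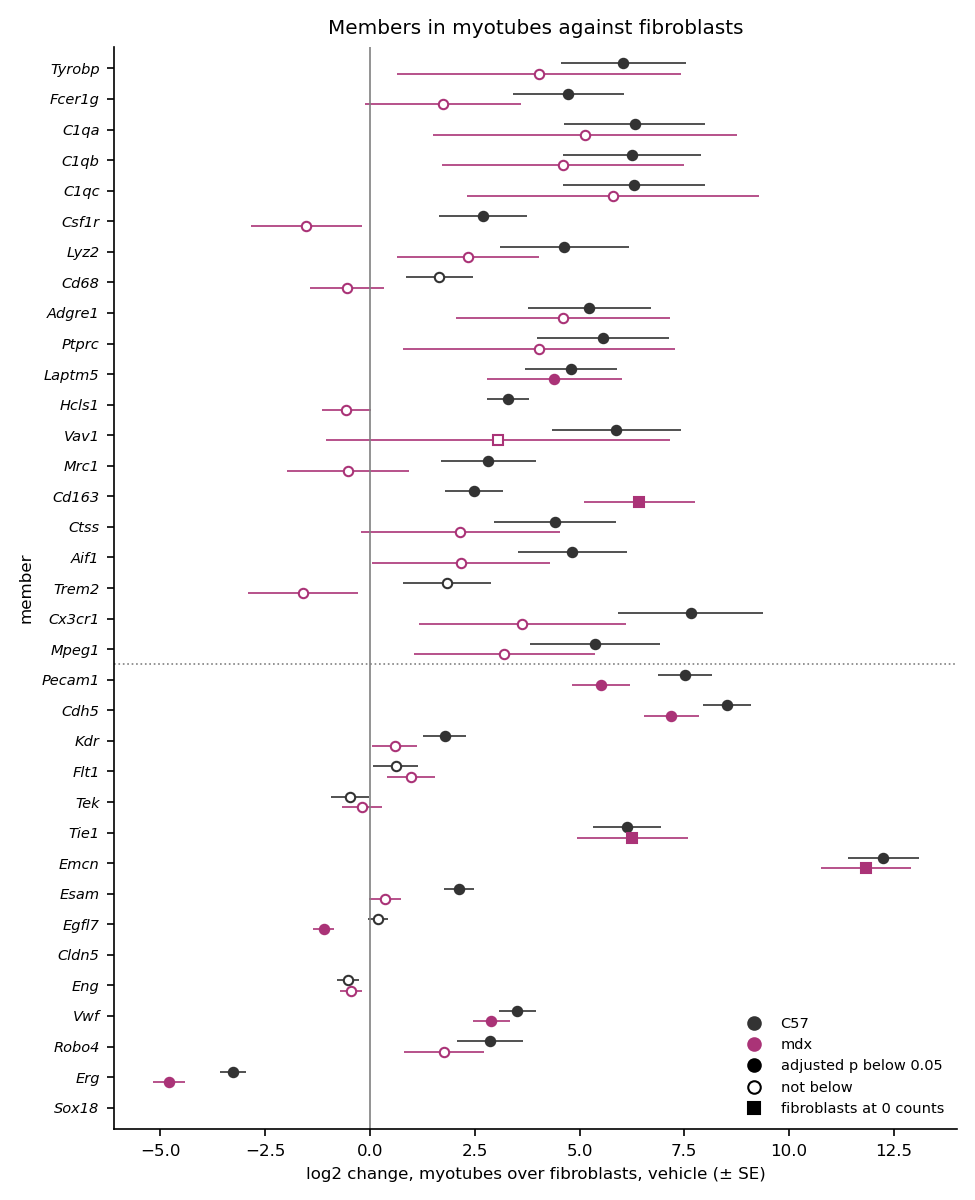
Fitted log2 difference of myotubes over fibroblasts under vehicle for the members (rows; Cldn5 and Sox18 were not tested), in C57 and in mdx, with bars of 1 SE and filled points for an adjusted p below 0.05. Squares mark genes at 0 in the fibroblast libraries, whose fitted value is no bound. Macrophage members lie right of 0 in C57 with wide bars and scatter in mdx, while Cdh5, Pecam1 and Emcn lie far right in both.

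The genotype comparison asks whether mdx cultures held a different share of these RNAs. No member passed in myotubes with vehicle, where 0.362% of all genes did (57 of 15763). All 32 members tested were lower in mdx, but the macrophage members moved together and do not count as separate genes. Some of them passed the filter mainly through C57 libraries, where they were high, which partly set their direction. Vav1 had 179 counts in C57 and 2 in mdx with vehicle, and Aif1 49 and 4. At an unadjusted p below 0.05 there were 7 of 20 macrophage and 7 of 12 endothelial members, among 2273 genes in all. The median log2 difference was -3.85 over the macrophage members and -1.04 over the endothelial members, against -0.00 over all genes. Cdh5 differed by -1.89 (SE 0.42, adjusted p = 0.118), Emcn by -1.99 (SE 0.45, adjusted p = 0.124), Pecam1 by -1.81 (SE 0.47, adjusted p = 0.161) and Hcls1 by -3.14 (SE 0.66, adjusted p = 0.0918). For 6 endothelial members (Emcn, Cdh5, Erg, Pecam1, Esam and Tie1) and for Hcls1 the 3 mdx libraries were all below the 3 C57 libraries, where 7.96% of all genes did so. DESeq2 called 5 members lower (Hcls1, Pecam1, Cdh5, Tie1 and Emcn), where it called 1.08% of all genes lower. Leaving out C57 vehicle culture 1, whose macrophage RNAs were as low as those of mdx cultures, gave 1 call with edgeR, and leaving out its aldosterone library too gave 2.

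With aldosterone no member passed either (background 0.311%), and 5 endothelial and 0 macrophage members had an unadjusted p below 0.05, among 2469 genes. The medians were -1.45 over the macrophage members and -0.57 over the endothelial members, against -0.02. Cdh5 differed by -1.76 (SE 0.41, adjusted p = 0.134), Emcn by -1.71 (SE 0.43, adjusted p = 0.151) and Pecam1 by -1.71 (SE 0.46, adjusted p = 0.161). Emcn, Cdh5, Pecam1, Esam and Tie1 were again lower in every mdx library than in any C57 library, where 4.99% of all genes did so, and DESeq2 called Pecam1, Cdh5 and Emcn lower, with 1.15% of all genes. The fibroblast gene sum moved the other way: it was 295, 1017 and 710 CPM in C57 and 1316, 4138 and 1424 CPM in mdx with vehicle, and its part in these values was not tested.

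Aldosterone was compared with vehicle within the myotubes of each genotype. No member passed in either genotype or as their mean without pairing (background 0.0127% in C57, 0% in mdx and 0.216% for the mean), nor did DESeq2 call any. At an unadjusted p below 0.05 there were 0 of 32 members in C57 (783 genes in all), 1 in mdx (Hcls1, 542 genes in all) and 1 for the mean (Emcn, 1167 genes in all). The macrophage median was -0.30 in C57 and 2.06 in mdx, and the endothelial one -0.09 and 0.15, against 0.01 over all genes in both. The macrophage value of mdx came from 1 culture. In mdx culture 2 the summed macrophage level was 5.06-fold higher with aldosterone, with 19 of 20 members higher by a median of 4.70-fold, from 0.499-fold for Cd163 to 17.3-fold for Mrc1. In mdx cultures 1 and 3 the ratios of the sums were 1.15 and 0.783, and in C57 cultures 1, 2 and 3 they were 0.890, 0.736 and 0.766. In C57 cultures 2 and 3 most members pointed the other way: 19 and 18 of 20 were lower with aldosterone. Libraries did not overlap for Cd163 in C57, which was lower (10.9% of all genes were), and for Hcls1 and Emcn in mdx, which were higher (2.52% of all genes were).

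Libraries with the same number resembled each other in myotubes, so the comparison was also fitted with the culture number as a block. The labels do not say that a number marks 1 cell preparation across treatments. With pairing, 8 macrophage members were higher with aldosterone in mdx (background 1.01% higher): Tyrobp by 2.67 (SE 0.37, adjusted p = 0.000133), C1qc by 1.96 (SE 0.29, adjusted p = 0.000627), Csf1r by 1.51 (SE 0.30, adjusted p = 0.00661), and Vav1, Ptprc, Hcls1, Cx3cr1 and C1qa. Without culture 2 there were 0 calls in mdx. Without culture 1 or 3 there were 11 and 14. In C57 the paired fit called 1 member, Tyrobp, lower by 0.57 (SE 0.16, adjusted p = 0.0378, background 2.46% lower), a call lost without culture 2 or 3. The ratio of pooled counts of Tyrobp in mdx was 8.92 (95% interval 4.98 to 17.3), and Vav1 rested on 2 vehicle counts, with a ratio of 23.4 (6.07 to 200). Both intervals cover counting error only and not the spread between cultures. Culture 2 gave most of the Tyrobp counts with aldosterone. The difference of the paired effect between genotypes was called for 5 members (all higher in mdx, background 0.0381% higher): Tyrobp, C1qc, Hcls1, Csf1r and Vav1. It was called for 0 members without mdx culture 2, and for 1 to 10 when another culture was left out.

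Emcn was the member that was higher with aldosterone in 6 of 6 cultures. The paired mean of both genotypes was 0.69 on the log2 scale (SE 0.13, adjusted p = 0.0364, 4.40% of all genes higher), and the unpaired one was 0.74 (SE 0.30, adjusted p = 0.627). The other 9 members called higher in the paired mean were macrophage members (Tyrobp, C1qc, Vav1, Ptprc, Cx3cr1, C1qa, Csf1r, C1qb and Hcls1). Without mdx culture 2 that fit called 3 members, all lower, so Emcn was no longer called either. The macrophage direction of the mean rested on that culture. Robo4 and Cd163 were lower with aldosterone in 6 of 6 cultures, Robo4 at levels under 0.65 CPM that did not pass the filter. Cd163 had only 18 counts with aldosterone and 21 with vehicle in all mdx cultures together.

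**Figure D4:**
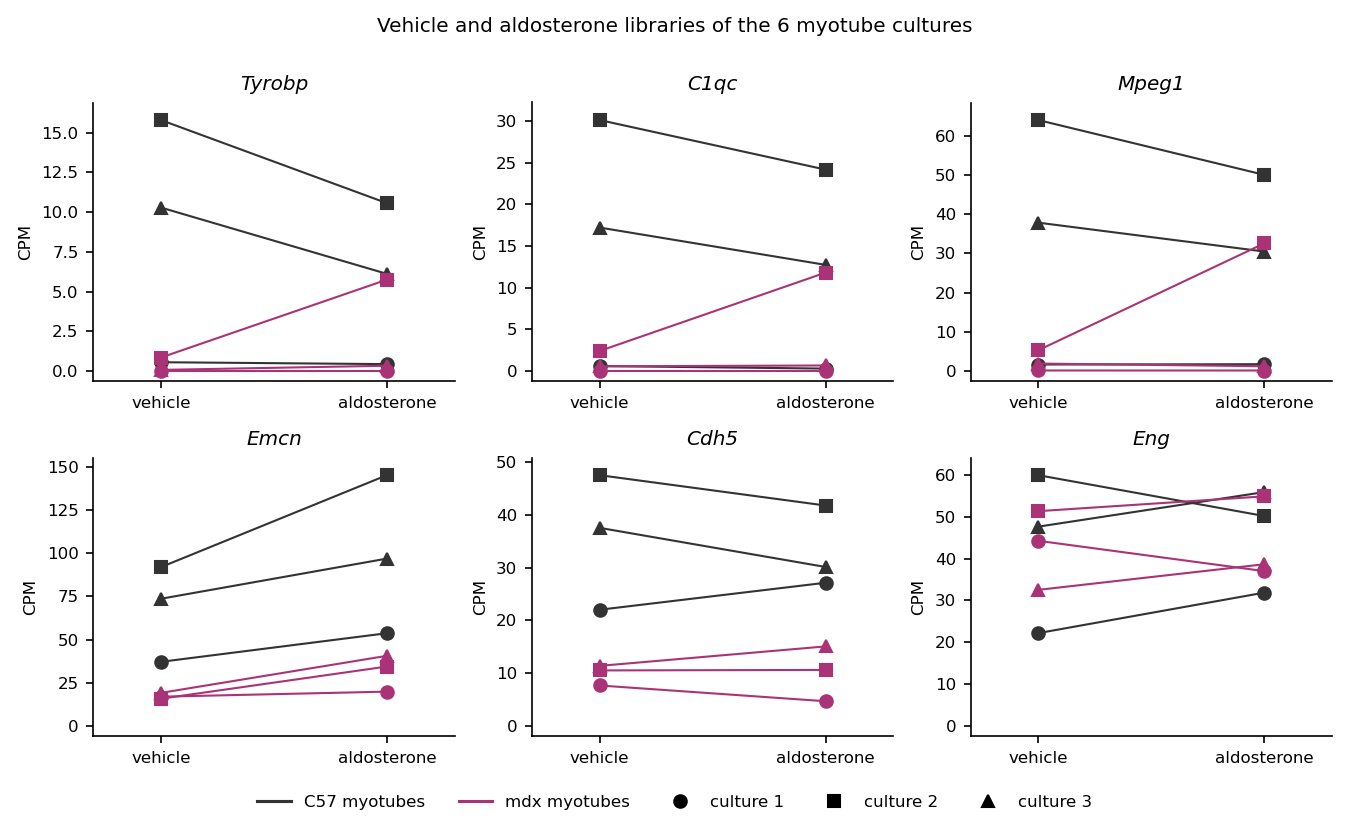
CPM of Tyrobp, C1qc, Mpeg1, Emcn, Cdh5 and Eng in the vehicle and aldosterone libraries of the 6 myotube cultures, with 1 line per culture, colour for genotype, symbol for culture number and a linear axis that includes 0. For Tyrobp, C1qc and Mpeg1 the line of mdx culture 2 climbs and those of C57 cultures 2 and 3 drop, while the lines of Emcn climb in 6 of 6 cultures.

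In fibroblasts, 18 of the 35 members passed the filter (10 macrophage and 8 endothelial), and 0 of them passed for medium from aldosterone-treated myotubes in C57, in mdx or as a mean (background 0%, 0% and 0.0120%, edgeR, and 0 by DESeq2). At an unadjusted p below 0.05 there were 2 members in C57 (Erg and Trem2, among 1996 genes), 2 in mdx (Adgre1 and Mpeg1, among 818) and 3 for the mean (among 2540). Erg stood at 15.5, 9.23 and 10.2 CPM with vehicle medium and at 7.12, 7.46 and 7.49 CPM with aldosterone medium in C57, without overlap (13.2% of all genes were lower in this way), and differed by -0.63 (SE 0.17, adjusted p = 0.327). Without a filter on low counts its adjusted p was 0.0174. Trem2 was also lower without overlap, at 4.93, 3.80 and 4.15 against 1.96, 3.21 and 2.02 CPM. In mdx the Erg values were 11.1, 10.1 and 9.52 against 10.6, 8.88 and 7.51 CPM, and overlapped. Lyz2 and Adgre1 were higher in every mdx library with aldosterone medium (2.77% of all genes were). Within the 3 mdx pairs the macrophage sum was 1.23, 1.41 and 1.12 times as high with aldosterone medium, with 11, 16 and 11 members higher and 4, 2 and 4 lower, and 0 members passed in the paired fit. Median differences were 0.11 over the macrophage members and 0.19 over the endothelial members in C57 and 0.60 and 0.03 in mdx.

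Between genotypes no fibroblast member passed (background 1.10% with vehicle medium and 1.23% with aldosterone medium). With vehicle medium 5 macrophage members and 1 endothelial member had an unadjusted p below 0.05, among 1997 genes, and the macrophage median was -0.96. Lyz2 stood at 9.65, 6.23 and 4.61 CPM in C57 and 1.24, 3.51 and 2.04 CPM in mdx, and differed by -1.52 (SE 0.50, adjusted p = 0.24). Laptm5 stood at 0.619, 0.704 and 0.465 CPM and at 0, 0.141 and 0.0817 CPM, and differed by -2.66 (SE 0.85, adjusted p = 0.18). These 2, Mpeg1, Trem2, Ctss and Adgre1 were lower in every mdx library than in any C57 one (7.52% of all genes were). With aldosterone medium the macrophage median was -0.33 and 0 of these 6 were separated: Hcls1 and Erg lay higher in every mdx library (11.1% of all genes did) and Flt1 lower (8.72%). Egfl7 differed by 0.51 with vehicle medium without overlap (SE 0.16, adjusted p = 0.175, 9.63% of all genes higher in this way) and Flt1 by -1.05 with aldosterone medium (SE 0.39, adjusted p = 0.231).

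The 10 further lists placed these members among other cells. Their counts of calls between cell types stand beside a background of 36.7% of all genes higher and 38.0% lower in C57. In mdx the background was 35.5% and 35.1%. Genes near 0 in fibroblasts or in myotubes could pass the filter through the other cell type, where they were higher. The direction of such genes was partly set by the filter, as for the members. The counts of the further lists therefore cannot be weighed against this background. Of 28 further myeloid genes tested between C57 myotubes and fibroblasts, 25 were higher and 0 lower, and in mdx 6 were higher and 2 lower. Irf8, a myeloid factor, was higher by 5.20 in C57 (SE 0.84, adjusted p = 1.58e-05) and by 4.32 in mdx (SE 1.07, adjusted p = 0.00138). Pld4 (4.81 and 2.86), Ncf1 (4.0 and 4.07) and Cd53 (5.76 and 4.71) were higher in both, and Slc11a1 (3.08) passed in C57. Lgmn, a lysosomal protease, was higher by 1.85 in C57 and 1.36 in mdx, and at 173 to 246 CPM in all 12 myotube libraries it did not follow the macrophage members. Of 23 further endothelial genes tested, 14 were higher and 6 lower in C57 and 10 and 6 in mdx. Prox1, a lymphatic factor, was higher by 6.61 and 7.08, and Tal1 and Bmx also passed in both, with 1 to 4 fibroblast counts per genotype. Aqp1 was lower (-5.39 and -4.21), as were Clec14a (-1.13 and -2.03) and Gata2 (-0.96 and -1.54).

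Genes of other leukocytes did not follow a common pattern. The 16 lymphoid genes summed to 8.73 to 14.8 CPM in myotubes and 0.957 to 1.73 CPM in fibroblasts. In mdx culture 1 this sum exceeded the macrophage sum (10.3 against 6.46 CPM with vehicle), and most of it was Zap70. Of the 6 tested, Zap70 and Cd3g in both genotypes and Il7r in C57 (4.05, SE 1.05) were higher, and Lck was lower in both, with at most 3 counts on the lower side for Zap70, Cd3g and Lck. Zap70 and Cd3g were present in myotubes of every culture (7.17 to 12.9 CPM and 0.464 to 3.31 CPM), whereas Cd3e had 21 counts in all myotube libraries, and Cd8a and Ncr1 were at 0 in all 24 libraries. The 16 neutrophil and mast cell genes summed to 0.282 to 3.38 CPM in myotubes and 0.0409 to 0.501 CPM in fibroblasts. Of the 2 tested, Csf3r was higher in C57 (adjusted p = 0.00949), with 87 myotube counts and 0 fibroblast counts, and 0 passed in mdx. Csf3r followed the macrophage cultures, at 0, 2.22 and 1.23 CPM in C57 with vehicle, while Tpsb2 and Fcer1a were at 0 throughout. Erythroid genes summed to at most 0.343 CPM in myotubes and 0.493 CPM in fibroblasts, with 0 tested between cell types and Alas2 as the highest.

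Of 11 mural cell genes tested, 3 were higher and 5 lower in C57 myotubes and 3 and 6 in mdx, led by Abcc9 (6.68 and 6.44), Mcam (2.54 and 2.60), Ndufa4l2 (-6.53 and -4.95) and Cspg4 (-2.12 and -1.97). The background was 36.7% of all genes higher and 38.0% lower in C57, and 35.5% and 35.1% in mdx. Of 8 glial genes, 4 were higher and 2 lower in C57 and 5 and 2 in mdx: Erbb3 (7.45 and 7.54) and Foxd3 (4.04 and 4.97) were higher in both and Sox10 (3.99 and 4.21) likewise, while S100b (-4.15 and -3.25) and Mbp (-0.85 and -2.27) were lower. All 8 fibroblast genes tested were lower in myotubes of both genotypes, among them Pdgfra (-5.33 and -4.82), Col1a1 (-4.60 and -2.75) and Thy1 (-3.80 and -4.14). All 10 muscle genes were higher, among them Myod1 (9.52 and 10.37), Mymk (9.57 and 10.83) and Acta1 (8.99 and 9.52).

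The ligands of these cells were measured in the same libraries. Of 14 growth factor and chemokine genes tested, 3 were higher and 7 lower in C57 myotubes than in fibroblasts and 2 and 6 in mdx. Of all genes, 36.7% were higher and 38.0% lower in C57, and 35.5% and 35.1% in mdx. Csf1, the ligand of Csf1r, was lower by 2.26 and 1.78 on the log2 scale, Vegfa, the ligand of Kdr and Flt1, by 1.83 and 1.39, Cx3cl1, the ligand of Cx3cr1, by 2.22 and 1.28, and Angptl4 by 1.63 and 1.88. With aldosterone in myotubes 0 genes of the further lists passed without pairing. With pairing, Csf1 was higher by 0.41 in C57 (SE 0.06, adjusted p = 0.000285) and 0.26 in mdx (SE 0.06, adjusted p = 0.0281), in 6 of 6 cultures. It stood at 197, 271 and 311 CPM with vehicle and 282, 303 and 411 CPM with aldosterone in C57, and at 497, 300.1 and 209.6 CPM and 531, 369.9 and 274 CPM in mdx. Ccl2, a chemokine of monocytes, was higher by 0.86 in C57 (SE 0.13, adjusted p = 0.000213), and Vegfd in both (0.72 and 0.84). These paired fits called 785 of 15763 genes in C57 and 367 in mdx, in either direction. Further myeloid genes called in mdx with pairing were Ms4a7, Fcgr3, Fcgr1 and Fcgr2b, 4 of 28, where 1.01% of all genes were called higher. In mdx cultures 1, 2 and 3, Ms4a7 stood at 0, 0.920 and 0.352 CPM with vehicle and 0, 5.56 and 0.387 CPM with aldosterone. Fcgr3 stood at 0.0331, 0.991 and 0.282 CPM and at 0.0637, 4.76 and 0.221 CPM. Both thus rose mainly in culture 2, like the macrophage members.

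Between genotypes, 2 further endothelial genes passed in myotubes (background 0.362% of all genes with vehicle and 0.311% with aldosterone). Esm1, a secreted proteoglycan of endothelium, stood at 8.59, 19.52 and 27.8 CPM in C57 and 0.365, 0.566 and 0.845 CPM in mdx with vehicle, a log2 difference of -5.09 (SE 0.56, adjusted p = 0.00364), and differed by -4.99 with aldosterone (adjusted p = 0.0045). It was higher in C57 fibroblasts, which held almost no Cdh5, Pecam1 and Emcn, at 34.8 to 59.0 CPM, than in mdx fibroblasts, at 0.164 to 0.490 CPM, with differences of -7.31 (adjusted p = 2.05e-06) and -7.61 (adjusted p = 2.22e-06). Tal1, a factor of blood and endothelial cells, stood at 1.87, 4.21 and 2.61 CPM in C57 and 0.464, 0.778 and 0.422 CPM in mdx with vehicle, a difference of -2.44 (SE 0.41, adjusted p = 0.0293). In fibroblasts, Angptl4 was higher in mdx with both media (0.48 and 0.47), and Myh11 (-1.0) and Mcam (-1.10) were lower with aldosterone medium.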

How the data were processed

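Poly(A) RNA was sequenced from 24 non-directional libraries. The authors deposited read counts per gene on mm39, made with featureCounts 1.5.0-p3 per the submitters' processing notes, and FPKM values beside them, used here only to compare levels between genes. Aligner: not given in the sources used here, nor the annotation release. Without strand, overlapping and antisense genes cannot be told apart. CPM were computed from the deposited counts over the library total. Tests used edgeR 4.0.16 (quasi-likelihood, robust, TMM) in R 4.3.3 after filterByExpr, adjusted by Benjamini-Hochberg across the genes kept (15763 in myotubes, 16671 in fibroblasts and 17864 across both). Of the 35 members, 32, 18 and 33 passed. SE is the log2 change divided by the square root of F, an approximation. DESeq2 1.42.0, other filters and scalings, left-out libraries and a block by culture number were alternatives (limma 3.58.1 was loaded beside edgeR). Same-numbered libraries were taken as paired where every pair's deviations correlated above 0.1: C57 myotubes (0.358 to 0.703), mdx myotubes (0.482 to 0.675) and mdx fibroblasts (0.105 to 0.298), but not C57 fibroblasts (-0.0173 to 0.122), genotypes or cell types. Members and the 10 further lists (further myeloid, lymphoid, neutrophil and mast cell, further endothelial, mural, glial, erythroid, fibroblast, muscle and ligand genes) were chosen with earlier results of these data known. Every member is named, and up to 4 called genes per further list and comparison are named by smallest adjusted p (the most abundant where none is called), with the 10 closest to each list's mean, of which some are not reported here; Csf1, Cd3e, Apoe, Lgmn, Spi1 and Csf3r values, and the genes named at 0, were singled out after their values were seen.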

Additional observations from a re-analysis of the deposited data

Results flagged for a closer look

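The effect of aldosterone in myotubes differed between genotypes in the paired fit for 5 macrophage members (edgeR's quasi-likelihood test, Benjamini-Hochberg adjustment). The log2 effect in mdx minus that in C57 was 3.24 for Tyrobp (adjusted p = 0.000385), 2.29 for C1qc (adjusted p = 0.00685), 1.98 for Hcls1 (adjusted p = 0.0416), 1.86 for Csf1r (adjusted p = 0.0449) and 4.12 for Vav1 (adjusted p = 0.0499). Without mdx culture 2, 0 of the 5 were called. Vav1 had 2 counts in the mdx vehicle libraries.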

How the results depend on the processing

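Beyond the culture block, the numbers of members called that moved by more than 1.5 times were those of the genotype comparison in myotubes (DESeq2 5 with vehicle and 3 with aldosterone; 0 to 1 when leaving out a library and up to 2 without both C57 libraries of replicate 1), of aldosterone medium without a filter on low counts (1 in C57 fibroblasts and 1 as a mean; 0 to 1 when leaving out a library) and of mdx myotubes against fibroblasts (9; DESeq2 16; otherwise 8 to 10). In C57 myotubes against fibroblasts 27 members became 25 to 29 when leaving out a library and 22 to 28 under other settings. Without Eng the endothelial range was 5.82-fold. The cause was not tested. Of the other member results, 1401 kept direction and side of the threshold, 138 passed under an alternative, 21 no longer passed and 19 turned direction.

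With the replicate block the numbers of members called were 1 for aldosterone in C57 myotubes, 8 in mdx, 5 for the difference between genotypes and 10 for the mean. Leaving out a culture from the blocked fits gave 0 to 1 in C57, 0 to 14 in mdx (11 without culture 1), 0 to 10 for the difference and 3 to 12 for the mean (9 without mdx culture 1). The block gave 17 and 4 members in mdx against C57 myotubes with vehicle and aldosterone, 1 in mdx against C57 fibroblasts with vehicle medium and 17 in mdx myotubes against fibroblasts, where the numbers do not pair the samples. For the mean effect of medium, the block without mdx replicate 2 gave 2.

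The turned directions came with leaving out mdx aldosterone replicate 2 (for Tyrobp in C57, vehicle replicate 2). Over left-out libraries without the block, log2 changes with aldosterone ran from -1.41 to 0.18 for Tyrobp in C57. In mdx they ran from -0.44 to 6.14 for Tyrobp, -0.064 to 4.13 for C1qa, -1.23 to 4.37 for C1qc, -0.67 to 3.06 for Csf1r, -0.46 to 8.03 for Ptprc and -0.38 to 3.82 for Cx3cr1. The difference between genotypes ran from -0.94 to 4.66 for C1qc and -0.30 to 3.44 for Csf1r. The mean ran from -0.50 to 2.79 for Tyrobp, -0.10 to 1.99 for C1qa, -0.43 to 1.83 for C1qb, -0.76 to 2.04 for C1qc, -0.52 to 1.34 for Csf1r, -0.35 to 3.89 for Ptprc and -0.28 to 1.82 for Cx3cr1. In the blocked mean without mdx replicate 2, C1qb was at -0.039, C1qc at -0.040 and Csf1r at -0.10.

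Over all genes, calls for aldosterone were 2 in C57 myotubes (0 to 57 under other settings without the block, 785 with the block), 0 in mdx (0 to 19, 367 with the block) and 34 for the mean (14 to 168, 1412 with the block). Between genotypes they were 57 with vehicle (6 to 457, 433 with the block) and 49 with aldosterone (8 to 460, 397 with the block) in myotubes, and 184 and 205 in fibroblasts (93 to 475 and 89 to 544). For medium they were 0 in C57 (0 to 74), 0 in mdx (0 to 24) and 2 for the mean (1 to 293, and 950 without mdx aldosterone replicate 2; the block without mdx replicate 2 gave 305 in mdx and 1786 for the mean).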
